A study of Homo sapiens with 9 samples.

Results

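The genes described here encode the IκB kinases and the proteins that switch them on or off by ubiquitin: the catalytic kinases CHUK (IKKα) and IKBKB (IKKβ), their regulatory subunit IKBKG (NEMO), the related kinases IKBKE (IKKε) and TBK1 with the adaptor TANK, and the ubiquitin-handling proteins TNFAIP3 (A20), TNIP1 (ABIN1), CYLD and RNF31 (HOIP). The 10 genes were chosen for these roles, with earlier results of these data known. Shares of their probe sets that are set beside those of all probe sets are therefore a description only. Each probe set was taken whose platform annotation names exactly 1 gene, that gene being among the 10. A probe set is the group of short probes with which the array measures 1 transcript or part of it. In this way 26 of the 41091 probe sets that name 1 gene were described, for 10 of 19775 genes, and all 26 were among the 54613 probe sets tested. The 1 further probe set that names RNF31 also names IRF9 and was left out. CYLD has 7 probe sets, TANK 4, IKBKB 3, CHUK and TBK1 1 each, and the other genes 2 each. Within a gene they are numbered in the order in which the plot of differences lists them with their identifiers.

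RNA from cells of the established human Burkitt lymphoma line BL2, the study's single model of transformed germinal centre B cells, was hybridised to HG-U133 Plus 2.0 arrays. Cells were left untreated (control) or were exposed for 6 hrs to the CD40 ligand CD40L at 200 ng/ml or to LPS at 1 μM. LPS is a glycolipid from the outer membrane of E. coli. The labels give no time for the control arrays, so that a control of the same 6 hrs is not assured. The 9 arrays come from 3 experimental batches with 1 array of every condition, so that n = 3 per condition. The labels number the arrays of a condition as biological replicates, each with the number of its batch.

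Levels are on the generalised log2 scale of the deposited values, which compresses dim probe sets, so that differences of dim probe sets understate the fold change. Array medians lay between 6.42 and 6.47, and replicate arrays correlated at 0.994 to 0.997. A level below 6.45, the median of the probe sets' means over the 9 arrays, is called dim, and 22 of the 26 probe sets lay above it. All 6 B cell markers measured had mean levels above 8, among them MS4A1 (CD20) at 13.02 and CD79B at 10.80, and so had all 4 markers of germinal centre B cells measured, with BCL6 at 11.01. The mean of the B cell list was 10.49 to 10.62 on the control arrays, 10.34 to 10.36 after CD40L and 10.38 to 10.48 after LPS, with 4 of 6 markers lower after CD40L and 2 of 6 after LPS. The mean of the germinal centre list was 9.78 to 9.86 on the control arrays, 9.35 to 9.42 after CD40L and 9.51 to 9.57 after LPS, with 3 of 4 markers lower after each stimulus. The part of these shifts in the results was not tested. Each marker, here and above, was read on its brightest probe set alone. On these, none of 6 T or NK cell, 5 monocyte or macrophage and 5 fibroblast markers measured had a mean level of 8. The fibroblast marker COL1A1 came close, at 7.94. On these probe sets 0 of them were called in either comparison with the control. The study, however, lists COL1A1 among its genes most changed by CD40L. The RNA of many cells of this 1 line was pooled, so that a change in every cell and a change in a part of the cells cannot be told apart.

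In resting cells NF-κB is held in the cytoplasm by IκB proteins. In the canonical route IKKβ, bound to NEMO, phosphorylates IκB and so marks it for degradation, whereas in the non-canonical route IKKα acts on the precursor encoded by NFKB2. Chains of ubiquitin, linked through side chains of lysine or head to tail (linear chains), bring NEMO and its activators together. The LUBAC ligase, whose catalytic subunit is RNF31, builds linear chains, CYLD cuts both kinds of chain, and A20, which ABIN1 helps to recruit, edits or caps them. IKKε and TBK1 are better known as the kinases that activate interferon regulatory factors, and TANK is one of the adaptors that hold them. CD40 engages both NF-κB routes through TRAF adaptors, and LPS is sensed through TLR4 with CD14 and LY96 (MD-2).

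A difference was called where the p-value from limma, adjusted over all 54613 probe sets after Benjamini and Hochberg, was at most 0.05. After CD40L, 10 of the 26 probe sets were higher than in the control (38.5%, against 3.71% of all probe sets tested) and 0 were lower (1.87% of all). The 10 belonged to 4 genes: both probe sets of IKBKE, both of TNFAIP3, 3 of 4 of TANK and 3 of 7 of CYLD. After LPS, 4 of 26 were higher (15.4%, against 1.17% of all) and 0 lower (0.892% of all), both probe sets of IKBKE and both of TNFAIP3. Without adjustment, limma assigned p under 0.05 to 13 probe sets higher and 1 lower with CD40L, and to 8 higher and 1 lower with LPS. With quantile normalization 10 probe sets were higher after CD40L, with CYLD probe set 4 in place of TANK probe set 1, and 5 after LPS, with 0 lower in both, although over all probe sets it moved the share of higher differences among the calls from 66.5% to 50.2% and from 56.7% to 47.1%. Probe sets of 1 gene are measured on the same RNA and are not replicates, and both comparisons use the same 3 control arrays. The shares of all probe sets cover many dim ones, in which a change can be missed, whereas most of the 26 were not dim.

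The median log2 fold change of the 26 probe sets was 0.14 after CD40L and 0.055 after LPS, beside 0.0050 and 0.0029 over all probe sets tested. The differences ranged from −0.17 to 0.78 after CD40L and from −0.16 to 0.72 after LPS. All 3 CD40L arrays lay above all 3 control arrays for 13 of the 26 (9.09% of all probe sets), and for 0 did they lie below (7.27%). For LPS the corresponding numbers were 8 (7.0%) and 0 (6.38%).

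**Figure D1:**
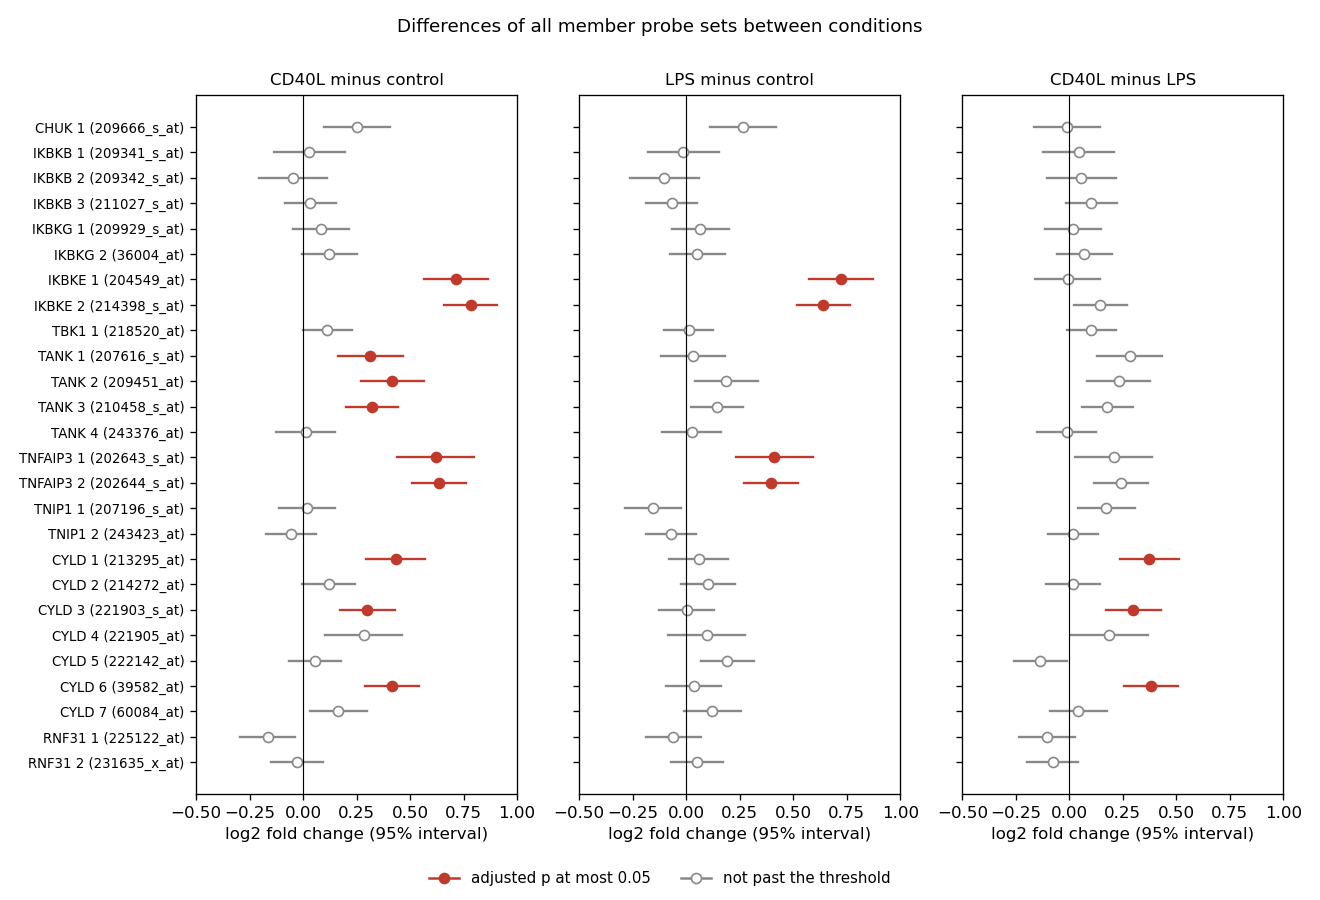
Log2 fold change (horizontal axis) with its 95% interval from the limma fit for each of the 26 probe sets, in the 3 comparisons; filled red points passed the adjusted p of 0.05, open grey points did not. The red points of IKBKE and TNFAIP3 lie to the right of 0 in the first and second panel, those of TANK in the first panel, and those of CYLD in the panels for CD40L minus control and CD40L minus LPS.

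The sequence before the start is shown for the genes whose RNA rose, because NF-κB is the factor that these kinases release. TNIP1, which stayed under the threshold, is shown as well and is the only other member with a match to the κB motif. Of TANK, TNIP1 and CYLD only the window with a match is printed. The printed windows thus hold matches more often than all windows of the members do. RefSeq windows of 250 bases before an annotated start (GRCh38.p14) were held for 9 of the 10 genes, 17 windows in all. The κB motif, the 10-base sequence to which NF-κB dimers bind, was searched on both strands and matched in 4 of the 17 windows, from TNFAIP3, TNIP1, TANK and CYLD. Of all 35116 windows of that length, 9.96% held a match. The windows below run 5′ to 3′ on the strand of the gene, with matches to the κB motif in capitals. They are TNFAIP3 at chr6:137867009-137867258 (plus strand), CYLD at chr16:50741836-50742085 (plus), TANK at chr2:161136713-161136962 (plus), TNIP1 at chr5:151081035-151081284 (minus) and IKBKE at chr1:206470226-206470475 (plus).
TNFAIP3: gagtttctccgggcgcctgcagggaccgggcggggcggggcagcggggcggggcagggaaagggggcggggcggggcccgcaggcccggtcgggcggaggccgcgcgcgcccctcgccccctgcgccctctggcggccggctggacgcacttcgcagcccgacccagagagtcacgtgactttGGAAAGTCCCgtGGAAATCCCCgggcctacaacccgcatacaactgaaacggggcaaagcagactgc
CYLD: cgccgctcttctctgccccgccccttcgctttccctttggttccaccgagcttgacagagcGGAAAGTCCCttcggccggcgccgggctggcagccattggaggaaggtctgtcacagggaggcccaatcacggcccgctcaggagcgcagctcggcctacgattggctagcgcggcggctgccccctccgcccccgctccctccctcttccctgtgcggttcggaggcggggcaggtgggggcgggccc
TANK: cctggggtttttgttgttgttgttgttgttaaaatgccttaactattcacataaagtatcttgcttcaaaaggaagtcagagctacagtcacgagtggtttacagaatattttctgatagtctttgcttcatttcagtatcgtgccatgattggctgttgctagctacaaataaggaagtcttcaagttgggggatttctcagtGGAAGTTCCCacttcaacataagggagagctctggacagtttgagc
TNIP1: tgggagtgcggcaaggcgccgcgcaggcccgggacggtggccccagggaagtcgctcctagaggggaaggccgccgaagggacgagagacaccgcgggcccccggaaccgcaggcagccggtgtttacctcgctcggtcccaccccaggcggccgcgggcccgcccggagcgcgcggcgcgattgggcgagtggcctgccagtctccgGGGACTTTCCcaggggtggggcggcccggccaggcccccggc
IKBKE: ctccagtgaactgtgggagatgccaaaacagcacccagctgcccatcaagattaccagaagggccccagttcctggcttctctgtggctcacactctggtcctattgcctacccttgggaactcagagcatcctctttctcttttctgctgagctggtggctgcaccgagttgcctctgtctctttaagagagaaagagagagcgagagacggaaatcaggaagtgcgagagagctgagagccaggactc

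TNFAIP3 was the one member gene with a pair of matches, 67 to 58 and 55 to 46 bases before its start. TANK has its match 46 to 37 bases before the start, TNIP1 42 to 33 and CYLD 189 to 180. The other windows of these 3 genes hold none, but windows of 1 gene can overlap. A second CYLD window, from 50741906, begins on the last base of that gene's match and so cuts it off. The ISRE core GAAANNGAAA, to which interferon regulatory factors bind, matched in 1 of the 17 windows, 246 to 237 bases before 1 start of RNF31, and in 3.02% of all windows. IKBKE, with the largest log2 fold changes among the members, has no match to either motif in its window. A match is a description of these letters, and the absence of one says only that the letters are not in the window.

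**Figure D2:**
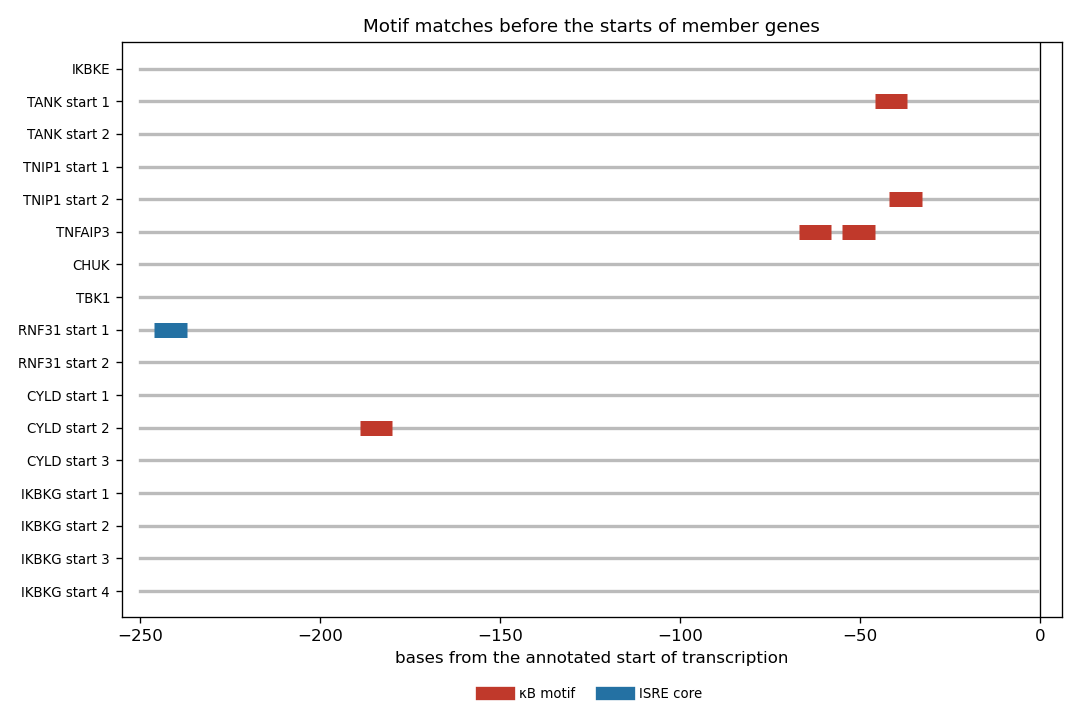
Matches to the κB motif (red) and the ISRE core (blue) in the 250 bases before each annotated start of 9 member genes; the horizontal axis gives bases from the start, and each grey line is 1 window. The matches of TANK, TNIP1 and TNFAIP3 lie within 67 bases of the start, and those of CYLD and RNF31 lie further away.

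Of the classical IκB kinase complex, no probe set passed the threshold in either comparison. CHUK came closest. Its level on the control arrays of batches 1, 2 and 3 was 8.75, 8.52 and 8.73, after CD40L it was 8.90, 9.04 and 8.82, and after LPS 9.01, 8.91 and 8.87. All CD40L and all LPS arrays lay above all control arrays. The log2 fold change of CHUK was 0.25 after CD40L (95% interval 0.10 to 0.41, adjusted p = 0.0531 in limma) and 0.26 after LPS (0.11 to 0.42, adjusted p = 0.0803). Without the control array of batch 3 both differences passed (adjusted p = 0.0234 and 0.0403), and the one after LPS also passed with quantile normalization (0.034) and without the CD40L array of batch 2 (0.0307).

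IKBKB, the catalytic kinase of the canonical route, was measured by 3 probe sets, none of them past the threshold. On probe set 1 its level was 7.92, 7.38 and 7.67 in the control, 7.73, 7.69 and 7.64 after CD40L and 7.71, 7.62 and 7.60 after LPS. The control arrays spread more widely than the treated ones and enclosed them. The log2 fold change there was 0.028 after CD40L (−0.14 to 0.19) and −0.015 after LPS (−0.18 to 0.15), and over the 3 probe sets the differences ran from −0.046 to 0.034 and from −0.10 to −0.015.

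IKBKG encodes NEMO, the subunit that binds ubiquitin chains, and has a near-identical pseudogene copy in the genome, so that its signal may not come from IKBKG alone. Its probe set 1 had levels of 8.06, 7.90 and 7.79 in the control, 8.12, 8.03 and 7.86 after CD40L and 7.99, 8.0 and 7.97 after LPS. The conditions overlapped. The difference was 0.085 (−0.046 to 0.22) after CD40L and 0.066 (−0.065 to 0.20) after LPS. Probe set 2 gave 0.12 (adjusted p = 0.343 in limma) and 0.052 (adjusted p = 0.858).

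IKBKE, the inducible relative of the IκB kinases, rose after both stimuli and had the largest differences of the 10 genes. Probe set 1 was at 8.29, 8.06 and 7.94 on the control arrays, 8.76, 8.89 and 8.79 after CD40L and 8.81, 8.87 and 8.78 after LPS. Every treated array lay above every control array, while the CD40L and LPS arrays overlapped. From a control mean of 8.10 ± 0.18 (SD, n = 3), the level reached 8.81 ± 0.070 with CD40L and 8.82 ± 0.048 with LPS. These are log2 fold changes of 0.72 (SE 0.071, 1.64-fold, adjusted p = 1.11e-05 in limma) and 0.72 (1.65-fold, adjusted p = 8.33e-05).

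IKBKE probe set 2 read 7.89, 7.81 and 7.75 in the control, 8.65, 8.61 and 8.54 after CD40L and 8.49, 8.37 and 8.50 after LPS. Here the 3 conditions did not overlap, with the control lowest and CD40L highest. The log2 fold change was 0.78 after CD40L (SE 0.058, 1.72-fold, adjusted p = 5.46e-07 in limma) and 0.64 after LPS (1.56-fold, adjusted p = 5.33e-05). The 2 probe sets correlated at r = 0.954 over the 9 arrays, which they share. Both were called under each of the 20 alternatives tried, in both comparisons, with adjusted p of at most 0.0051 after CD40L and 0.0239 after LPS. Between CD40L and LPS neither passed, with differences of −0.0079 (95% interval −0.16 to 0.14) on probe set 1 and 0.14 (0.019 to 0.27) on probe set 2.

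**Figure D3:**
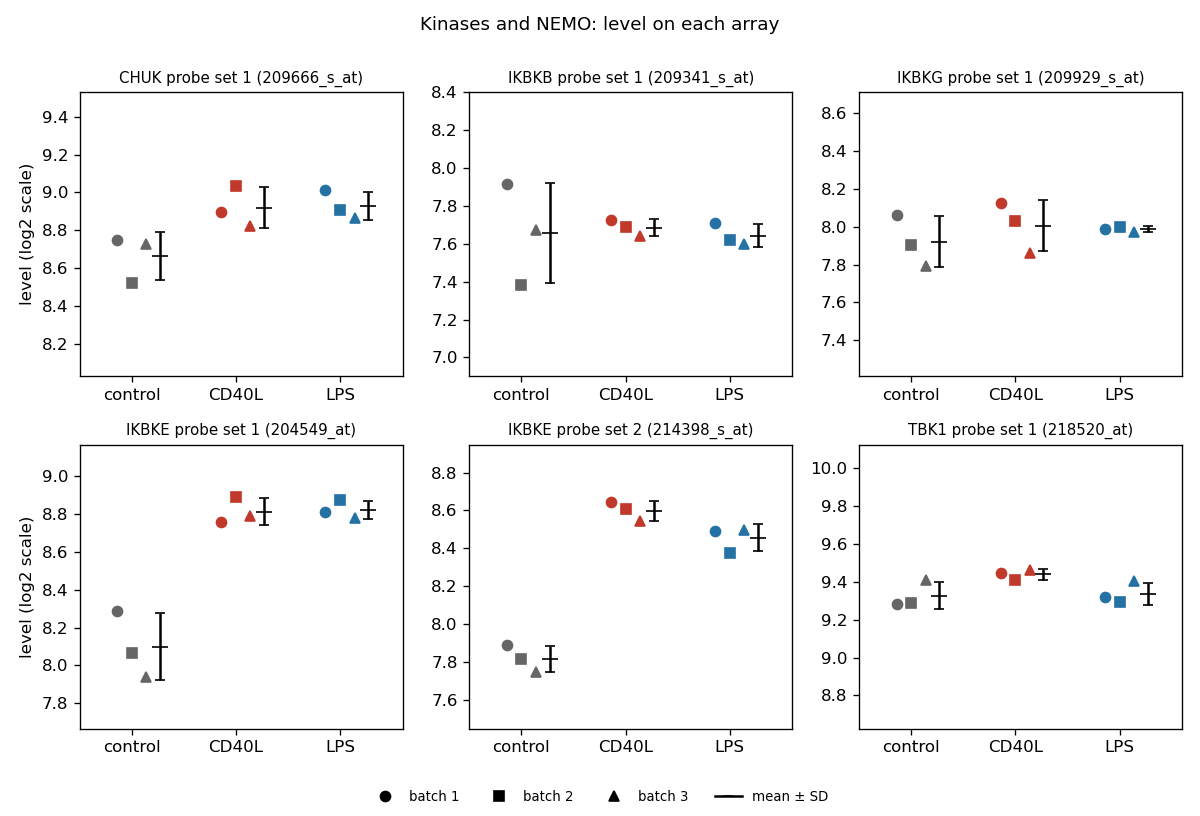
Level on the log2 scale (vertical axis, range set separately for each panel) on each array for the kinases and NEMO, by condition; symbols mark the batch, bars the mean ± SD of 3 arrays. The control arrays of both IKBKE probe sets lie between 7.75 and 8.29, below every treated array, while those of IKBKB and IKBKG overlap with the treated arrays.

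TBK1, the constitutively made relative of IKBKE, did not pass the threshold. Its level was 9.28, 9.29 and 9.41 in the control, 9.45, 9.41 and 9.46 after CD40L and 9.32, 9.29 and 9.40 after LPS. The CD40L arrays began at the level of the highest control array, and the LPS arrays lay within the range of the control. The difference was 0.11 after CD40L (95% interval −0.0029 to 0.23, adjusted p = 0.335 in limma) and 0.011 after LPS (−0.11 to 0.13, adjusted p = 0.979).

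TANK, which binds both TRAF proteins and the kinases TBK1 and IKKε, rose after CD40L on 3 of its 4 probe sets. Probe set 2 was at 8.87, 8.76 and 8.70 in the control, 9.19, 9.38 and 9.02 after CD40L and 9.12, 9.03 and 8.75 after LPS. The CD40L arrays all lay above the control, and the LPS arrays overlapped with both. Its level rose by 0.42 on the log2 scale (SE 0.069, 1.34-fold, adjusted p = 0.00144 in limma). Probe set 3, at 7.28, 7.22 and 7.24 in the control, 7.58, 7.57 and 7.56 after CD40L and 7.41, 7.46 and 7.31 after LPS, rose by 0.32 (adjusted p = 0.00235). The 3 conditions were separate on it, in the order control, LPS, CD40L.

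On probe set 1 TANK was at 8.93, 9.08 and 9.05 in the control, 9.50, 9.21 and 9.30 after CD40L and 9.07, 9.04 and 9.04 after LPS, with each CD40L array above all others, and the difference after CD40L was 0.31 (adjusted p = 0.014 in limma). After LPS probe sets 2, 3 and 1 gave 0.19, 0.14 and 0.032, none past the threshold (adjusted p = 0.245, 0.296 and 0.941). Probe set 4 was dim, between 5.96 and 6.20 on the 9 arrays. Without the batch term probe set 2 missed the threshold narrowly (adjusted p = 0.0532), and probe set 1 lost its call in 7 of the 20 alternatives, namely with the 2 conditions alone, with quantile normalization, without batch 1 or 3, without the control array of batch 1 and without the CD40L array of batch 1 or 3 (adjusted p = 0.0542 to 0.311).

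TNFAIP3, whose product A20 restrains the kinases and is itself a classical NF-κB target, rose after both stimuli. Probe set 2 read 8.32, 8.14 and 8.09 in the control, 8.86, 8.79 and 8.80 after CD40L and 8.58, 8.62 and 8.53 after LPS. The 3 conditions did not overlap, with the control lowest and CD40L highest. From 8.18 ± 0.12 (SD, n = 3) in the control the level reached 8.82 ± 0.037 after CD40L and 8.58 ± 0.044 after LPS. The log2 fold change was 0.63 after CD40L (SE 0.059, 1.55-fold, adjusted p = 5.69e-06 in limma) and 0.39 after LPS (1.31-fold, adjusted p = 0.00192).

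TNFAIP3 probe set 1 was at 7.75, 7.33 and 7.41 in the control, 8.23, 8.23 and 7.89 after CD40L and 8.03, 8.09 and 7.61 after LPS. The batch 3 array of LPS lay below the batch 1 array of the control, so that these groups overlapped, and within each batch the LPS array was above the control array. The difference was 0.62 after CD40L (1.54-fold, adjusted p = 0.000272 in limma) and 0.41 after LPS (1.33-fold, adjusted p = 0.0165). The calls after CD40L held under all 20 alternatives on both probe sets. After LPS, probe set 2 lost its call only without batch 3 (difference 0.37, adjusted p = 0.073), and probe set 1 lost it in 9 of the 20 alternatives, namely without the batch term, with the batch as a random effect, with the 2 conditions alone, without batch 1, 2 or 3, without the CD40L array of batch 3 and without the LPS array of batch 1 or 2 (adjusted p = 0.0502 to 0.307).

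TNIP1, the partner of A20 whose window carries a κB match, did not pass the threshold. Its brighter probe set 1 was at 9.22, 9.08 and 9.15 in the control, 9.23, 9.18 and 9.08 after CD40L and 9.04, 9.08 and 8.85 after LPS. The control overlapped with both, and the LPS arrays lay just below all CD40L arrays. The difference was 0.017 after CD40L (95% interval −0.11 to 0.15) and −0.16 after LPS (−0.29 to −0.025, adjusted p = 0.298 in limma). Probe set 2 was dim, between 6.08 and 6.23.

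CYLD, which removes ubiquitin chains and so opposes the kinases, rose after CD40L on 3 of its 7 probe sets. Probe set 6 was at 7.34, 7.20 and 7.22 in the control, 7.74, 7.75 and 7.52 after CD40L and 7.40, 7.30 and 7.16 after LPS. The CD40L arrays lay above all others, and those of LPS and the control overlapped. The log2 fold change was 0.42 after CD40L (SE 0.060, 1.33-fold, adjusted p = 0.000432 in limma), against 0.034 after LPS (95% interval −0.093 to 0.16, adjusted p = 0.922).

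Probe set 1, with 7.52, 7.39 and 7.46 in the control, 8.0, 7.95 and 7.73 after CD40L and 7.60, 7.60 and 7.36 after LPS, gave 0.43 (1.35-fold, adjusted p = 0.000597 in limma) and 0.058 (−0.079 to 0.20). It followed probe set 6 closely over the 9 arrays (r = 0.986). Probe set 3 was at 8.18, 8.05 and 8.18 in the control, 8.44, 8.43 and 8.44 after CD40L and 8.18, 8.18 and 8.05 after LPS. On all 3 probe sets each CD40L array was above each control and LPS array. The differences of probe set 3 were 0.30 after CD40L (1.23-fold, adjusted p = 0.00658 in limma) and 0.0015 after LPS (−0.13 to 0.13). Its call after CD40L was lost without batch 1 (adjusted p = 0.0704), and those of the other 2 held under all 20 alternatives.

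The remaining 4 CYLD probe sets were not called. The difference after CD40L was 0.28 on probe set 4 (adjusted p = 0.0673 in limma), 0.16 on probe set 7, 0.12 on probe set 2 and 0.055 on probe set 5. Of these, probe sets 5 and 7 were dim. Probe set 4 passed with quantile normalization (adjusted p = 0.0484), with an intensity trend and robust eBayes (0.0446), without batch 3 (0.0117) and without the control array of batch 3 (0.00107). After LPS the 4 probe sets gave 0.095 to 0.19, with none past the threshold.

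RNF31, the catalytic subunit of the ligase that builds linear chains, did not pass the threshold. On probe set 1 its level was 6.73, 6.84 and 6.72 in the control, 6.50, 6.57 and 6.72 after CD40L and 6.63, 6.74 and 6.74 after LPS. The batch 3 array of CD40L was as high as the lower arrays of the control, and the arrays of batches 1 and 2 were lower. The differences were −0.17 after CD40L (95% interval −0.30 to −0.036, adjusted p = 0.159 in limma) and −0.060 after LPS, and those of probe set 2 were −0.030 and 0.049. The 2 probe sets did not move together over the 9 arrays (r = −0.294).

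**Figure D4:**
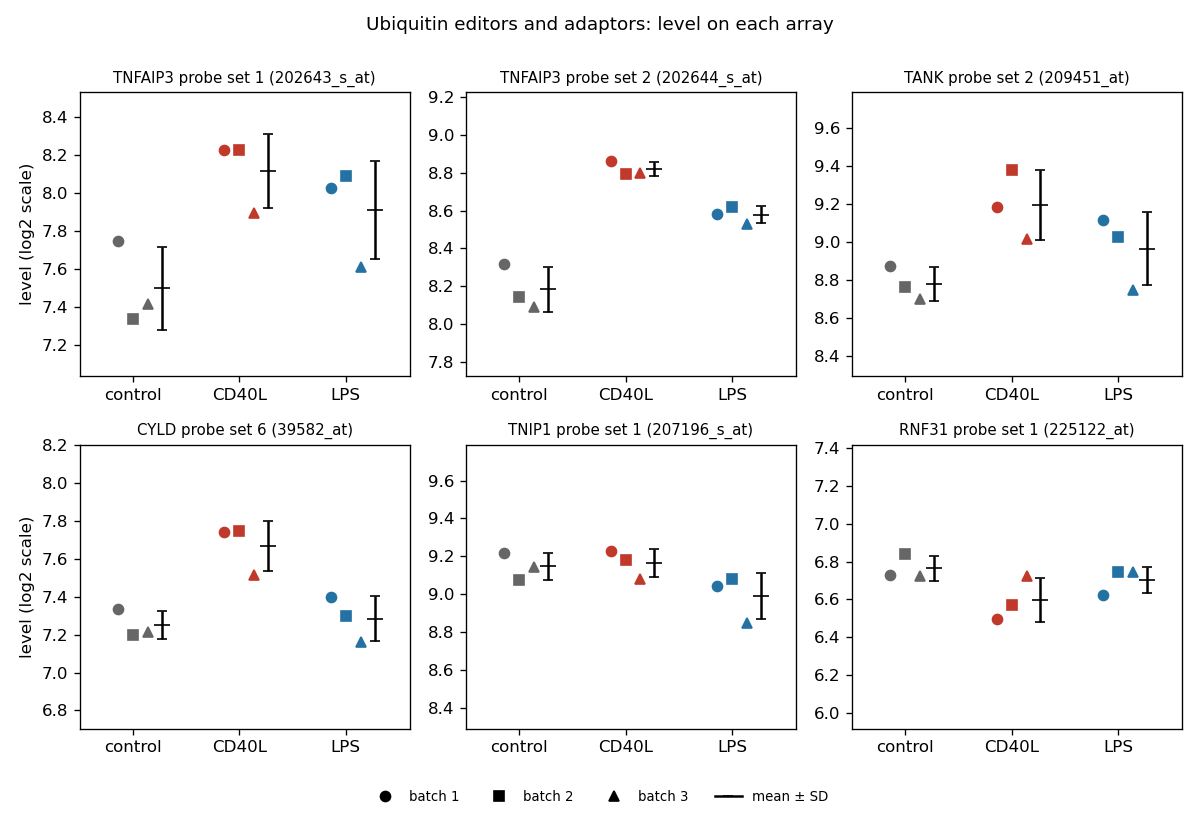
Level on the log2 scale (vertical axis, range set separately for each panel) on each array for TANK and the ubiquitin editors, by condition; symbols mark the batch, bars the mean ± SD of 3 arrays. For CYLD (probe set 6) the CD40L arrays lie between 7.52 and 7.75 and the LPS arrays, between 7.16 and 7.40, overlap with the control.

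Set directly against each other, CD40L gave higher levels than LPS for 3 of the 26 probe sets (11.5%, against 0.3% of all probe sets tested) and lower levels for 0 (0.0952% of all). Without adjustment, limma gave p under 0.05 for 11 higher and 1 lower. The 3 probe sets called were of CYLD, with differences of 0.38 on probe set 6 (adjusted p = 0.00612 in limma, 95% interval 0.25 to 0.51), 0.37 on probe set 1 (adjusted p = 0.0136) and 0.30 on probe set 3 (adjusted p = 0.0446). The CD40L arrays lay above all LPS arrays for 10 of 26 probe sets (5.1% of all) and below them for 0 (4.07%). The median difference of the 26 was 0.086, beside 0.0049 over all probe sets.

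The other 4 CYLD probe sets were not called between the stimuli. Their differences were 0.017 on probe set 2, 0.19 on probe set 4, 0.042 on probe set 7 and, with the CD40L array below the LPS array in each batch, −0.14 on the dim probe set 5 (95% interval −0.26 to −0.013, adjusted p = 0.914 in limma). The 3 called differences kept their direction under all 20 alternatives, but not their calls. Without the batch term the adjusted p was 0.134 on probe set 6, 0.197 on probe set 1 and 0.0997 on probe set 3, and with the batch as a random effect 0.0764, 0.112 and 0.0684. The call of probe set 6 was also lost without batch 1 or 3, without the CD40L array of batch 2 and without the LPS array of batch 1, 2 or 3 (adjusted p = 0.0545 to 0.153). That of probe set 1 was lost without batch 1 or 3, without the CD40L array of batch 1, 2 or 3 and without the LPS array of batch 1 or 3 (adjusted p = 0.0758 to 0.41). That of probe set 3 was lost with bright probe sets alone, with an intensity trend and robust eBayes, without batch 1 or 3, without the control array of batch 1, without the CD40L array of batch 1, 2 or 3 and without the LPS array of batch 1, 2 or 3 (adjusted p = 0.0606 to 0.693).

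For TANK, CD40L exceeded LPS by 0.28 on probe set 1 (adjusted p = 0.182 in limma, 95% interval 0.13 to 0.43), 0.23 on probe set 2 and 0.18 on probe set 3, none past the threshold. Within the arrays of these 2 conditions alone, probe set 1 and probe set 2 passed (adjusted p = 0.00479 and 0.0469), and probe set 1 also passed without batch 2 (0.0239) and without the control array of batch 2 (0.0114). The difference of TNFAIP3 was 0.24 on probe set 2 (adjusted p = 0.16, 95% interval 0.11 to 0.37) and 0.21 on probe set 1 (0.028 to 0.39). On probe set 2 it passed with the 2 conditions alone (0.0206) and without the control array of batch 2 (0.0321). For CHUK the difference was −0.010 (−0.16 to 0.14) and for TBK1 0.10 (−0.014 to 0.22).

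The genes around the kinases were followed in 6 lists of 72 genes, each gene by its brightest probe set, and 62 were measured. The shares of all probe sets given beside them also cover dim probe sets, in which a change can be missed. After CD40L 7 of the 62 were higher (11.3%, against 3.71% of all probe sets tested) and 6 lower (9.68%, against 1.87%), and after LPS 5 were higher (8.06%, against 1.17%) and 1 lower (1.61%, against 0.892%). Without the batch term these counts were 4 and 0 after CD40L and 0 and 0 after LPS. Their median log2 fold change was 0.045 after CD40L and 0.035 after LPS, beside the 0.0050 and 0.0029 over all probe sets. Among the 9 IκB proteins and NF-κB subunits, 4 were higher and 1 lower after CD40L and 4 higher and 0 lower after LPS. The median log2 fold changes of the 9 were 0.30 and 0.24. The higher genes are 44.4% of the list in each comparison, beside the 3.71% and 1.17% of all probe sets. Without the batch term the 4 calls after LPS were lost, as were those of RELB and REL after CD40L.

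Among them, NFKB2, the precursor processed in the non-canonical route, was at 7.91, 7.67 and 7.48 in the control, 8.76, 8.80 and 8.53 after CD40L and 8.06, 8.05 and 7.68 after LPS. All CD40L arrays lay above those of both other conditions. Its log2 fold change was 1.01 after CD40L (adjusted p = 1.09e-07 in limma) and 0.24 after LPS (adjusted p = 0.0701), and the difference between the stimuli was 0.77 (adjusted p = 1.57e-05). Of the 3 probe sets of NFKB2, 2 were higher after CD40L, and 2 were higher with CD40L than with LPS. MAP3K14, the kinase NIK that activates IKKα in that route, rose by 0.64 after CD40L (adjusted p = 5.09e-05), against 0.030 after LPS (adjusted p = 0.951), and also differed between the stimuli, by 0.61 (adjusted p = 0.000628). Its only probe set had a mean level of 6.44 in the control and 6.47 after LPS, near the dim line of 6.45, and 7.08 after CD40L. Differences there may understate the fold change, and a change after LPS may be missed. The calls of both genes after CD40L, and of both differences between the stimuli, held under all 20 alternatives.

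The inhibitor gene NFKBIE (IκBε) rose by 0.83 after CD40L (adjusted p = 4.22e-07 in limma) and by 0.49 after LPS (adjusted p = 0.000336), and NFKBIB (IκBβ) by 0.32 (adjusted p = 0.00307) and 0.28 (adjusted p = 0.0177). RELB, the partner of the NFKB2 product, rose by 0.52 (adjusted p = 0.000569 in limma) and 0.43 (adjusted p = 0.00654). The batch 1 control array of RELB (8.88) lay above the batch 3 arrays of CD40L (8.81) and LPS (8.72). Within each batch both treated arrays of RELB were above the control array. Of the 3 probe sets of NFKBIB, 2 were higher after CD40L and 1 after LPS. REL, the c-Rel subunit, fell by 0.33 after CD40L on its brightest probe set (adjusted p = 0.00369), and 2 of its 5 probe sets were lower. NFKBIZ, a nuclear IκB protein, rose after LPS by 0.44 (adjusted p = 0.0108), with −0.00073 after CD40L and a difference between CD40L and LPS of −0.44 (adjusted p = 0.0283). NFKBIE differed between the stimuli by 0.33 (adjusted p = 0.0172 in limma), although its CD40L and LPS arrays overlapped across batches. Of the 20 alternatives, RELB lost its call in 2 after CD40L (adjusted p up to 0.133) and in 4 after LPS (up to 0.386), REL in 3 (up to 0.11), NFKBIZ in 5 after LPS (up to 0.202), NFKBIE in 1 after LPS (0.0548) and NFKBIB in 1 after CD40L (0.0746) and 7 after LPS (up to 0.334). Between the stimuli, NFKBIE lost its call in 10 (up to 0.788) and NFKBIZ in 9 (up to 0.807), and for all but RELB after CD40L and NFKBIE after LPS these included leaving out an array or a batch.

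Of the adaptors, SQSTM1 (p62), an adaptor that gathers ubiquitinated proteins, rose by 0.50 after CD40L on its brightest probe set (adjusted p = 0.0019 in limma, 0.0714 without the batch term), which was the only one of 5 to pass. On that probe set the lowest CD40L array was level with the highest control array. Within each batch the CD40L array was above the control array. OPTN (optineurin), which binds linear chains and TBK1, rose by 0.31 after LPS (adjusted p = 0.0282) and gave 0.16 after CD40L (adjusted p = 0.269). Of the 2 probe sets of OPTN, only 1 was called after LPS. The call of OPTN was lost in 11 of the 20 alternatives (adjusted p up to 0.436), among them leaving out batch 1 or 3. Of the 12 A20 partners and other deubiquitinases measured, 0 were called after either stimulus, with 3 higher and 2 lower at an unadjusted p under 0.05 in limma after CD40L and 1 in each direction after LPS.

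The LUBAC partners of RNF31, RBCK1 and SHARPIN, were not called after either stimulus. After CD40L, RBCK1 (HOIL-1) differed by −0.21 (95% interval −0.35 to −0.067, adjusted p = 0.0929 in limma) and SHARPIN by −0.031 (−0.17 to 0.11). OTULIN, which cuts linear chains, was not called on the brightest of its 3 probe sets (0.15, 0.017 to 0.27). Both others were higher after CD40L, by 0.21 (adjusted p = 0.042) and 0.23 (adjusted p = 0.0221), and the dimmer of them also after LPS, by 0.26 (adjusted p = 0.0273). For MAVS, IRAK1 and MALT1 too, 1 probe set other than the brightest was higher after CD40L. Among the receptors and adaptors, and chosen after their values were seen because their changes were below 0.3, BCL10 rose by 0.28 after CD40L, while TLR4, IRAK3, TRAF5 and BIRC2 fell by 0.26, 0.25, 0.23 and 0.23, as did the ubiquitin ligase gene PELI2 by 0.29. IRAK3 also fell after LPS, by 0.28. Without the batch term none of these 7 differences was called (adjusted p = 0.073 to 0.18), and each was lost in 8 to 13 of the 20 alternatives. They are those of the brightest probe set, on which the CD40L and control arrays of PELI2 overlapped. After CD40L only 1 probe set was called of the 4 of TLR4, the 3 of BCL10 and the 2 each of TRAF5 and PELI2. For IRAK3 2 of 3 were called after CD40L and 1 of 3 after LPS, and BIRC2 has only 1. Of the LPS receptor parts, TLR4 had a mean level of 7.23 over the 9 arrays, LY96 6.51 and CD14 6.20, the last of them dim, and CD40 had 8.94.

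**Figure D5:**
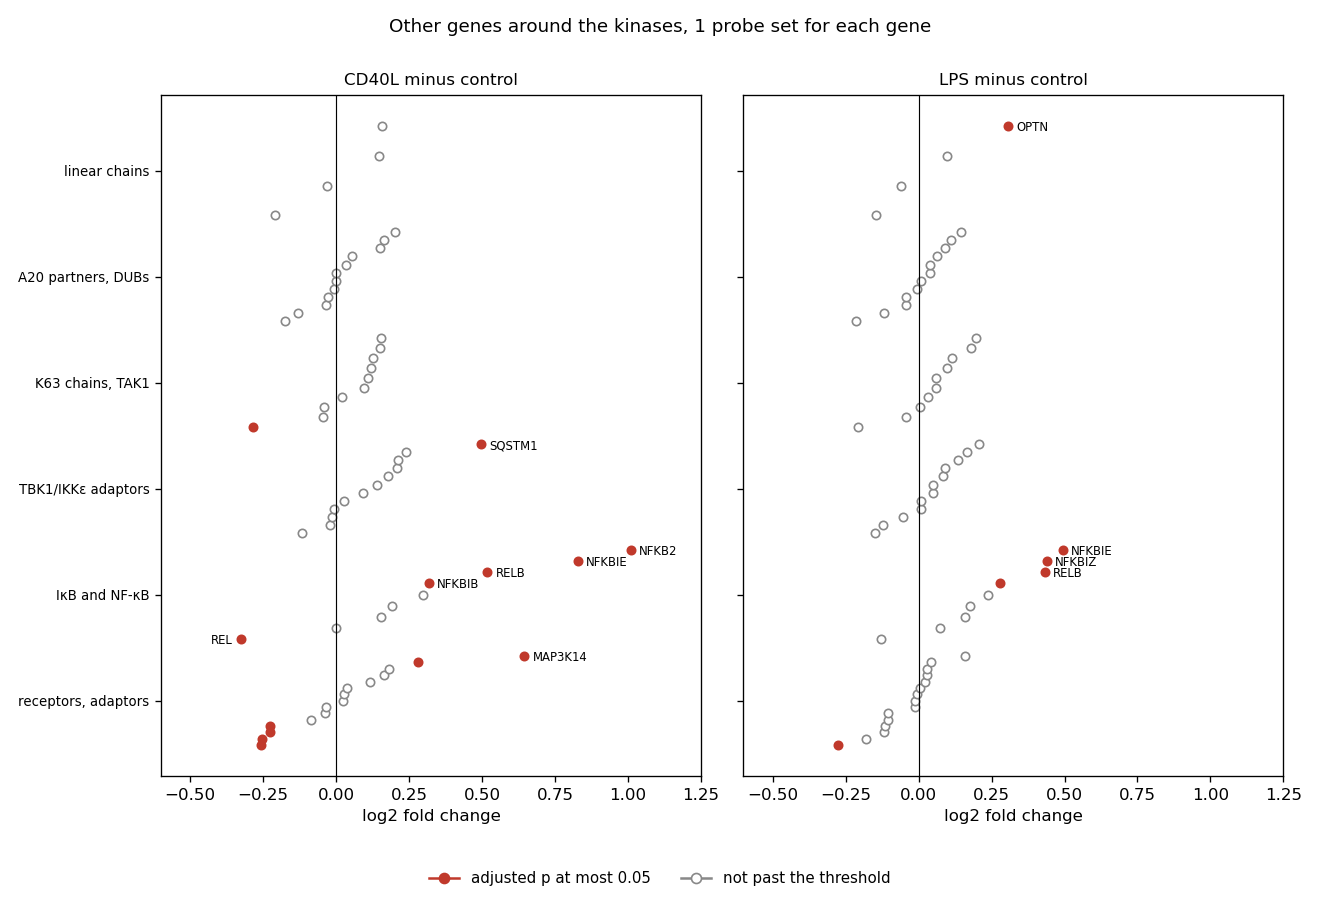
Log2 fold change (horizontal axis) of the 62 measured genes around the kinases after CD40L and after LPS, grouped by list, each gene by its brightest probe set; filled red points passed the adjusted p of 0.05 in limma, and those with a change of at least 0.3 are named. The IκB and NF-κB list holds 5 red points in the CD40L panel and 4 in the LPS panel.

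The 2 members that varied most over the 9 arrays were IKBKE (probe set 1) and TNFAIP3 (probe set 1). Among 3306 probe sets of other genes whose level ranged over at least 0.5, the 5 genes most like IKBKE by Pearson's r over the 9 arrays were ACTR3 (0.981), MT1X (0.966), ARFIP2 (0.964), HLA-DQB1 (0.963) and DNAJA1 (0.961). All 5 had control means below those of CD40L and of LPS, by 0.31 to 0.85 and by 0.34 to 0.83. Those most like TNFAIP3 were PTP4A3 (0.982), MED13L (0.981), ANKRD33B (0.98), PEF1 (0.98) and PATL1 (0.979), each highest after CD40L, lower after LPS and lowest in the control. These correlations run over arrays that share conditions and batches, and they describe likeness of pattern only.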

How the data were processed

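Probe intensities of 9 HG-U133 Plus 2.0 arrays were background-corrected and normalised by the authors with a variance stabilising transformation, summarised by median polish and deposited on a generalised log2 scale. These deposited log2 values were not transformed further. Of 54675 probe sets, 62 AFFX controls were left out. Symbols came from the platform annotation, and 41043 matched the RefSeq gene table by Entrez identifier, with 0 changed. No level is a read depth, and the 3 arrays per condition limit the precision.

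Log2 fold changes, standard errors, 95% intervals and two-sided p-values came from limma 3.58.1 in R 4.3.3 (lmFit and eBayes, tested on simulated data), with terms for condition and batch in 1 fit of all 9 arrays (4 residual and 11.6 prior degrees of freedom), adjusted after Benjamini and Hochberg. With 3 arrays against 3, an exact permutation test of a single value that ignores the batches cannot go below 0.1, and one within batches is coarser still. The batch is a term because the sample names number the batches and the methods model them. As a check of this pairing, the arrays' departures from their condition's mean were correlated. The mean r was 0.217 for same-numbered arrays (−0.181 to 0.466, 7 of 9 pairs over 0.1) and −0.109 for others. Departures sum to 0 within a condition, so that the second value largely follows from the first. The control array of batch 2 correlated at −0.181 and −0.040 with the CD40L and LPS arrays of its batch, and at 0.382 and 0.323 with those of batch 3. The consensus correlation was 0.0724.

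All members, 6 gene lists and the markers were chosen with earlier results of these data known. Named were every member, list genes past the threshold with a change of at least 0.3, and the 5 genes most like each of the 2 most variable members, with the exceptions stated. The list genes without a probe set naming 1 gene, 10 of 72, were not analysed here, nor was a promoter of IKBKB. The alternatives were no batch term, batch as a random effect (statmod 1.5.0), median centring, quantile normalization, a fit of the 2 groups compared alone, bright probe sets only, single-gene probe sets only, an intensity trend with robust eBayes, and each batch and each array left out.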

Additional observations from a re-analysis of the deposited data

How the results depend on the processing

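No called difference changed direction under the alternatives tried. Without the batch term, that is without the replicate block, 9 of the 26 probe sets were higher after CD40L, 3 after LPS and 0 for CD40L over LPS, against 10, 4 and 3 with it. The last count was also 0 where the batch was a random effect, and with only the 2 conditions compared it was 6. The cause was not tested. Leaving out a batch or an array gave 8 to 12 higher after CD40L, 2 to 5 after LPS and 0 to 5 for CD40L over LPS, and 0 lower throughout.

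Of the 62 genes around the kinases, 7 were higher and 6 lower after CD40L, which became 4 and 0 without the batch term. The lower count was 0 with a random effect and 1 with the 2 conditions alone, and by the probe set of lowest p 11 were higher. After LPS, 5 higher and 1 lower became 0 and 0 without the batch term, 2 and 0 with a random effect, 3 higher with the 2 conditions alone and 2 lower with quantile normalization. For CD40L over LPS, 3 higher became 6 with the 2 conditions alone, and 1 lower became 0 without the batch term and with a random effect. Leaving out a batch or an array gave 6 to 9 higher and 1 to 5 lower after CD40L, 2 to 5 higher and 0 to 2 lower after LPS, and 2 to 5 higher and 0 to 1 lower for CD40L over LPS. Dim probe sets, 4 of the 26, lie near the floor of the arrays, where a change can be missed.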
